A study of Homo sapiens with 6 samples.

Results

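The promoters described here were a set of 656 that the authors classed as not bound by N-Myc, whose gene carried an H3K4me3 peak in cells given a control siRNA but not in cells given WDR5 siRNA-1. They were chosen from the authors' table of 6331 N-Myc-non-binding promoters, out of 9585 promoters in both deposited promoter tables, and make up 17.9% of the non-binding promoters with a control peak. A row was a member when its gene name stood in the control siRNA peak list and not in the WDR5 siRNA-1 peak list. These promoters are called control-only below, and the 3019 non-binding promoters whose names stood in both peak lists serve as their comparison. The rest of the non-binding table comprised 34 promoters listed only with WDR5 siRNA-1 and 2622 in neither list.

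The cells were BE(2)-C, an established human neuroblastoma line with an amplified MYCN gene, grown with fetal bovine serum. They were treated for 24 hours with WDR5 siRNA-1 or with control siRNA, and chromatin immunoprecipitated with an H3K4me3 antibody was sequenced, with 1 library per siRNA. IgG and input libraries, 1 of each per siRNA, were also made and were not used here. The title of the control H3K4me3 library ends in a 2 that no other title carries, and the labels do not say whether it was prepared apart from the WDR5 siRNA-1 library. If it was, its preparation and the siRNA cannot be told apart in any control-only call. No untransfected cells and no second WDR5 siRNA were analysed here, so the results describe 1 line and 1 siRNA against WDR5. The WDR5 siRNA-1 list held 11870 distinct names and the control list 13618. The lists give no read number or peak height, so depth is unknown, and fewer calls cannot be told apart from lower immunoprecipitation yield or depth. With 1 library per siRNA there is no replicate error and no test. The 95% intervals below are exact (Clopper-Pearson) intervals over promoters, which treat promoters as independent and cover neither library nor replicate error. Of 11 adrenergic neuroblastoma markers, 11 were in the control list, and 8 of these were also in the WDR5 siRNA-1 list. The 6 mesenchymal markers were also all in the control list, and 3 of these were in the WDR5 siRNA-1 list as well. Of 5 Schwann cell markers 1, ERBB3, was in both lists and 4 were in neither. Of 4 epithelial markers 1, KRT18, was in the control list only and 3 were in neither. The 5 blood markers were in neither list.

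H3K4me3, trimethylation of lysine 4 of histone H3, marks the start sites of active genes and also many CpG-rich promoters of inactive developmental genes. It is written by the SET1 and MLL family of methyltransferase complexes, of which WDR5 is a core subunit. Promoters rich in CpG dinucleotides tend to carry the mark in many cell types, whereas CpG-poor promoters carry it mainly where the gene is transcribed. N-Myc, encoded by MYCN, is a transcription factor that drives growth and division in neuroblastoma.

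The sequences of a few members show the range of base composition among control-only promoters. They are the RefSeq promoters (GRCh38.p14, 250 bases before to 50 after the start site) of the members with the highest and the lowest CpG content among those with a single entry, of DBH and DDC, whose products make catecholamines, and of HOXA10, a body axis regulator. Each is written 5′ to 3′ on the gene's strand, with CpG dinucleotides in capitals. DDC and HOXA10 have 2 RefSeq entries each, and which one corresponds to the deposited hg19 position was not determined.
SP8, chr7:20786837-20787136, minus strand: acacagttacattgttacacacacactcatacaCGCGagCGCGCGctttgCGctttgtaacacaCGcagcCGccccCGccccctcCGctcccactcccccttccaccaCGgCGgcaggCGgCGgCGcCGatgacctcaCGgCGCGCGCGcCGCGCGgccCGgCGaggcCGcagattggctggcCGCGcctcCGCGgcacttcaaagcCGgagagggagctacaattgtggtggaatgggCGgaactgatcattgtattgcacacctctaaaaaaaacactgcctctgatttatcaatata
FFAR2, chr19:35448007-35448306, plus strand: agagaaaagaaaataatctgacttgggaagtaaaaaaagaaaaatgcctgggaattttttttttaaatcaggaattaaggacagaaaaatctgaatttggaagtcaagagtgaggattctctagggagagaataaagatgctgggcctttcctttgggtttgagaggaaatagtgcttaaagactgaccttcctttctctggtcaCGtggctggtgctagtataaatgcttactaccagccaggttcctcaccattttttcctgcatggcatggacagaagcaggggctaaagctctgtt
DBH, chr9:133636113-133636412, plus strand: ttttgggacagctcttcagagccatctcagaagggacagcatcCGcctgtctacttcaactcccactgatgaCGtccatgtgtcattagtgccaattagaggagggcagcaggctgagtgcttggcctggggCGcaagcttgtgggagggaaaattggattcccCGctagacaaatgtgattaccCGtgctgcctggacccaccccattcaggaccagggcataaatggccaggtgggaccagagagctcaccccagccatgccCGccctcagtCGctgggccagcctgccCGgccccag
DDC, entry 1, chr7:50565356-50565655, minus strand: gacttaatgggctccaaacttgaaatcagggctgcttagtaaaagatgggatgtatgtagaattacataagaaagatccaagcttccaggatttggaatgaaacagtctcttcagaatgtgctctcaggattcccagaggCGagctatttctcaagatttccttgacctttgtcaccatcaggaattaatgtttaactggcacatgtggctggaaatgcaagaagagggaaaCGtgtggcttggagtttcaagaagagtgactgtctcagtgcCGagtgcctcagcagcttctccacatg
DDC, entry 2, chr7:50561022-50561321, minus strand: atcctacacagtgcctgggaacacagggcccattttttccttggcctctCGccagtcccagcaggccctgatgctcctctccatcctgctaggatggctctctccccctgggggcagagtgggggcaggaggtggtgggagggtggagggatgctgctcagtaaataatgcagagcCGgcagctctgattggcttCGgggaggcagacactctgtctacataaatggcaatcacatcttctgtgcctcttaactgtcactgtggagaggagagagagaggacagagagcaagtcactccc
HOXA10, entry 1, chr7:27179812-27180111, minus strand: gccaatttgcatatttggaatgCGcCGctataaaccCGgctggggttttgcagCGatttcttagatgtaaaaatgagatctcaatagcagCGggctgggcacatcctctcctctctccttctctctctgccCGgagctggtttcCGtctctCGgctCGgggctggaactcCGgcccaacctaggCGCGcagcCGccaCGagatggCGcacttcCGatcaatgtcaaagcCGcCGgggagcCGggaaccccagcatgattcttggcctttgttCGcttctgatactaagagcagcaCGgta
HOXA10, entry 2, chr7:27174271-27174570, minus strand: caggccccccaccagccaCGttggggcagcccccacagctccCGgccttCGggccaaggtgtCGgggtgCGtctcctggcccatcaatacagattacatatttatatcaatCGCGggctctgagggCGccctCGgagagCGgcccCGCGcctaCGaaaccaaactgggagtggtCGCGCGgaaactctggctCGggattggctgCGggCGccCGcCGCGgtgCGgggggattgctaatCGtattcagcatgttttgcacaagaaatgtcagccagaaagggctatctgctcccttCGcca

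The SP8 promoter, of a zinc finger regulator of limb and brain development, held 33 CpG dinucleotides in 300 bases. That is 1.19 times the number its C and G content would give by chance, a ratio called CpG observed over expected. The FFAR2 promoter, of a receptor for short-chain fatty acids, held 1 CpG, a ratio of 0.0863. The catecholamine genes lay near the low end, with 8 CpG in DBH (0.303) and 3 in each DDC entry (0.207 and 0.122), while the HOXA10 entries held 21 and 25 (0.875 and 0.849). The FFAR2 window held the letters CACGTG at position -47 and TATAAA at -30 from its RefSeq start site.

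Among the 3675 non-binding promoters with a control peak, the 656 control-only ones made up 17.9% (interval 16.6 to 19.1%). This share is what the membership rule counts, so it is the background for the group counts that follow and not a result about the members. Over all 13618 control names the share was 13.5%, and over the 3087 N-Myc-binding promoters with a control peak it was 4.18%. Of the 656 members, 653 matched a RefSeq protein-coding gene, and no member name occurred more than once in the control list.

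Control-only promoters occupied a narrow stretch of the non-binding table. The sources used here do not say what the order of rows stands for. The authors named the tables as quantifying H3K4me3, so the order may come from the same libraries as the calls and is described without a test. No promoter in rows 1 to 1500 was control-only, and all 1500 were in both lists. Rows 1501 to 2500 held 36 control-only promoters and 964 in both lists. Rows 2501 to 4000 held 594 control-only promoters, or 90.5% of them (interval 88.0 to 92.7%), against 530 in both lists. The median row was 3262.5 for control-only promoters and 1510 for those in both lists.

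The control-only share was higher in each later stretch up to row 4000. It was 1.20% of promoters with a control peak in rows 1501 to 2000, 6.0% in rows 2001 to 2500, 29.6% in rows 2501 to 3000, 66.1% in rows 3001 to 3500 and 86.9% in rows 3501 to 4000. In that last stretch 133 control-only promoters stood beside 20 in both lists and 342 in neither list. Beyond row 4000, 26 control-only promoters were scattered among 25 in both lists. Control-only promoters thus lay between a stretch in which both lists held the gene and one in which neither did.

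**Figure D1:**
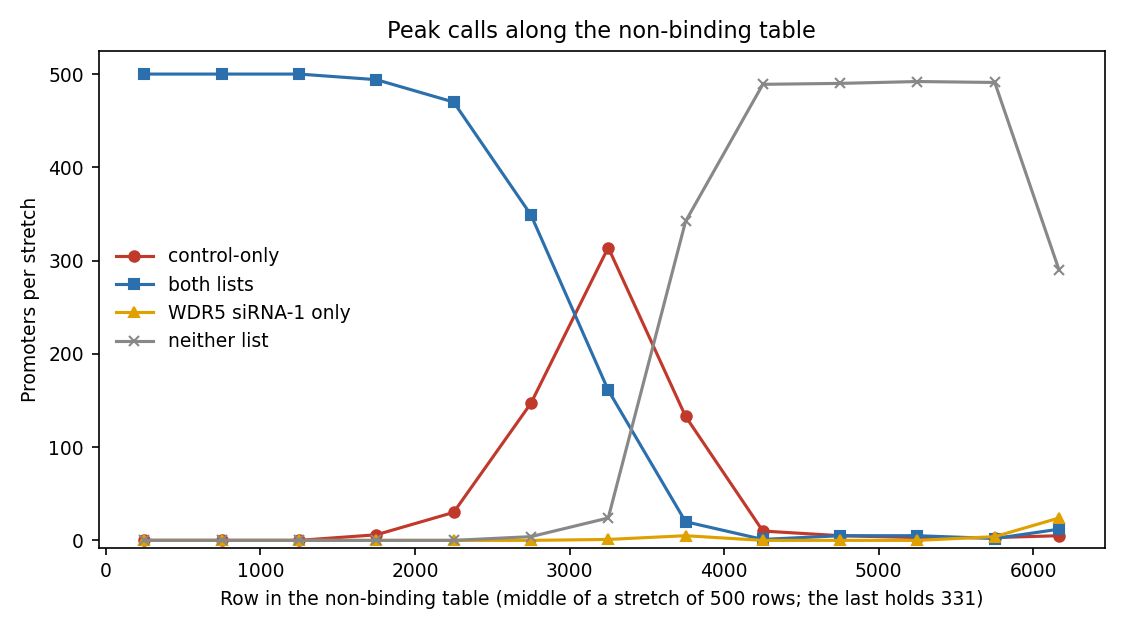
Number of non-binding promoters (vertical axis) in each stretch of 500 table rows (horizontal axis; the last stretch is shorter), by peak list. Control-only promoters peak at 314 in rows 3001 to 3500, between the promoters in both lists, which fill rows 1 to 1500, and those in neither list, which predominate after row 3500.

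The 10 members that came earliest in the table were MPP2 (row 1529), FANK1, GINS4, KCNJ2, GMPPA, PLD1, SLC35B3, SAMD12, SLC16A14 and NUAK2 (row 2103). MPP2 encodes a scaffold protein of the membrane-associated guanylate kinase family (hg19, chromosome 17, position 41985113). GINS4 encodes a subunit of the replicative helicase, KCNJ2 an inward rectifier potassium channel and PLD1 a phospholipase. The last 5 members were CRYM (row 6003), AGPAT4, PTHLH, PCDHB16 and CCDC94 (row 6320), of which PTHLH encodes a hormone related to parathyroid hormone.

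The calls of the members were then grouped by gene function. Of 32 gene lists with at least 10 non-binding promoters carrying a control peak, 21 had a control-only share above the 17.9% of the table. The interval lay wholly above that share in 9 lists. These were the SOX and forkhead factors, developmental transcription factors, neurotransmitter receptors, voltage-gated ion channels, receptor tyrosine kinases, the TGF-beta and BMP pathway, collagens and laminins, extracellular proteases, and xenobiotic metabolism with ABC transporters. It lay wholly below in 4 lists, the ubiquitin system, zinc finger names, membrane trafficking, and ribosome and translation. Other lists of signalling and neuronal genes, such as the WNT pathway, axon guidance and synaptic genes, had intervals that included the share of the table. The lists were written with earlier results of these data known, and they cover 258 of the 656 members.

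**Figure D2:**
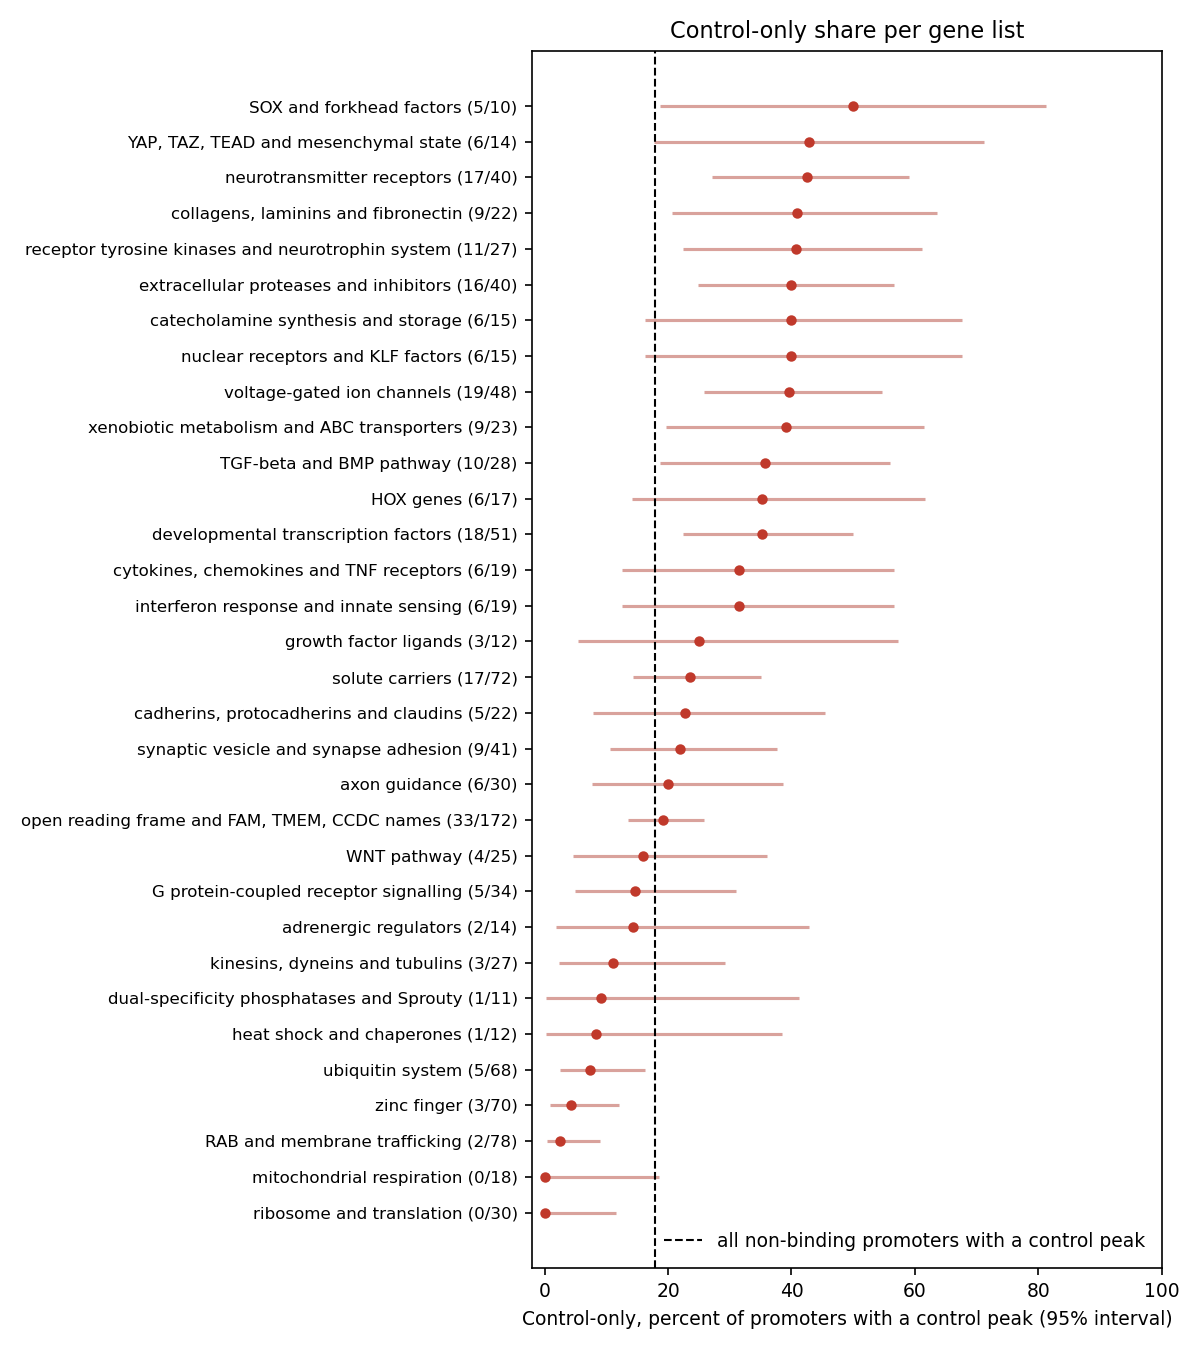
Control-only share of the promoters with a control peak (points, with exact 95% intervals over promoters) for each gene list with at least 10 such promoters, counts in brackets. The dashed line is the 17.9% of all non-binding promoters with a control peak; neurotransmitter receptors, ion channels and proteases lie near 40%, ribosome and mitochondrial genes at 0.

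Lineage and patterning regulators were control-only in 18 of 51 promoters with a control peak (35.3%, interval 22.4 to 49.9%), and a further 37 were in neither list. The earliest in the table were SIX2, DLX1, PITX3, DLX2, GBX2, BARHL1, LHX6 and PAX3. SIX2 maintains kidney progenitors, DLX1 and DLX2 direct the formation of forebrain interneurons, and PAX3 acts in neural crest and muscle precursors. DLX1 (chromosome 2, position 172950208) and DLX2 (position 172967478) are neighbouring genes, and both were control-only, at rows 2686 and 3026.

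HOX genes, which set position along the body axis, were control-only in 6 of 17 (35.3%, interval 14.2 to 61.7%). In the HOXA and HOXB clusters 4 of 5 promoters with a control peak were control-only, namely HOXA11, HOXB13, HOXB9 and HOXA10, with HOXA13 in both lists. In the HOXC and HOXD clusters 2 of 12 were, HOXC5 and HOXD12, and the 10 in both lists included HOXC9, HOXD9 and HOXD13. The intervals were 28.4 to 99.5% for HOXA and HOXB and 2.09 to 48.4% for HOXC and HOXD, and they overlapped. In neither list were 16 of the 21 HOXA and HOXB promoters and 2 of the 14 HOXC and HOXD promoters. The split by cluster was made after the calls were seen. Promoters within a cluster lie close together and are not independent.

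SOX and forkhead factors were control-only in 5 of 10. Among them were SOX21 and SOX3, which act in neural progenitors, FOXA1, a pioneer factor of endoderm, and SOX11, a factor of immature neurons. SOX9 and FOXC1 were in both lists. Nuclear receptors and KLF factors were control-only in 6 of 15 (40%), with an interval of 16.3 to 67.7% that included the 17.9% of the table. The control-only ones were the receptor genes RORB, NR2E1, the vitamin D receptor VDR, the retinoic acid receptor RARB, the progesterone receptor PGR and the thyroid hormone receptor THRB. The receptor genes PPARA, NR2C1, NR2F1, RXRA, ESR2 and ESRRG were in both lists, as were KLF10, KLF6 and KLF12.

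Immediate early factors had 3 control-only promoters of 7, MYC (chromosome 8, position 128748315, row 2745), EGR4 and MAFK, while JUN, EGR3 and IER5 were among those in both lists. The YAP, TAZ and mesenchymal list had 6 of 14 (42.9%, interval 17.7 to 71.1%). WWTR1, which encodes TAZ, stood early at row 2252. AXL, a receptor tyrosine kinase, LATS2, a kinase that restrains YAP and TAZ, COL1A1, CYR61, a secreted YAP target, and ZEB2, a repressor of epithelial genes, were the others. TEAD1 and TEAD3, the DNA-binding partners of YAP and TAZ, were in both lists, as were ZEB1, TWIST1 and CD44.

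Genes of the adrenergic state of neuroblastoma stood in both groups. Of the regulators, 12 of 14 were in both lists, among them PHOX2A, HAND2, GATA3 and ISL1, and the control-only ones were LMO1 and SOX11. Among catecholamine synthesis enzymes 3 of 5 were control-only, namely TH (chromosome 11, position 2193035, row 3449), DDC (chromosome 7, position 50628768, row 3401) and DBH (chromosome 9, position 136501485, row 2729). These make dopa, dopamine and noradrenaline in turn. GCH1, which makes the cofactor of TH, and PNMT, which makes adrenaline, were in both lists. The transporters SLC6A2 and SLC18A2 were in both lists. Of the peptides and processing enzymes, GAL, SCG5 and PCSK1 were control-only, CHGA, CHGB, NPY, SCG2 and PCSK2 were in both lists, and VIP was listed only with WDR5 siRNA-1. The control-only intervals of the regulators (1.78 to 42.8%), the synthesis enzymes (14.7 to 94.7%) and the peptides with their processing enzymes (8.52 to 75.5%) overlapped, and each included the 17.9% of the table.

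Receptor tyrosine kinases and neurotrophin receptors were control-only in 11 of 27 (40.7%, interval 22.4 to 61.2%). Among them were 4 ephrin receptors, EPHA4, EPHB6, EPHA7 and EPHB1, and GFRA1 and GFRA2, co-receptors for ligands of the GDNF family. The others were FGFR4, AXL, MET, PDGFRA and FLT3. RET, the signalling partner of these co-receptors, ALK, EGFR and NTRK3 were in both lists.

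In the TGF-beta and BMP pathway 10 of 28 were control-only (35.7%, interval 18.6 to 55.9%), and secreted components made up most of them. Secreted ligands, antagonists and binding proteins were control-only in 8 of 15 (53.3%, interval 26.6 to 78.7%), against 1 of 12 receptors and SMAD proteins (8.33%, interval 0.211 to 38.5%), a split made after the calls were seen and with overlapping intervals. The secreted ones included the ligands BMP2, BMP4 and GDF6, the antagonists NOG, CHRDL1 and FST, and LTBP2, which binds the extracellular matrix. The receptor was ACVRL1, and the 10th promoter was ID4, a BMP target. SMAD1, SMAD2, SMAD5, SMAD6, TGFBR1, TGFBR2, BMPR2 and ACVR1 were in both lists.

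WNT pathway promoters were near the background, with 4 of 25 control-only (16.0%, interval 4.54 to 36.1%), namely the ligands WNT9B and WNT2 and the secreted inhibitors SFRP5 and DKK2. Growth factor ligands had 3 of 12, KITLG, FGF5 and FGF9. Axon guidance genes had 6 of 30, SLIT1, NTN4, RTN4RL2, SLITRK3, SEMA5A and SLIT2. The cadherin and claudin list had 5 of 22, of which 4 were the tight junction claudins CLDN23, CLDN3, CLDN11 and CLDN7 and the other was CDH15. Of the Notch pathway 1 of 6 was control-only, MFNG, which adds sugars to Notch. The list of dual-specificity phosphatases and Sprouty genes had 1 of 11, DUSP9. The list of the p53 pathway and cell cycle inhibitors had 1 of 5, the cyclin gene CCNA1, while the inhibitor genes CDKN2A and CDKN2B were in both lists.

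Extracellular matrix and protease genes stood above the background. Collagens, laminins and related proteins were control-only in 9 of 22 (40.9%, interval 20.7 to 63.6%). The 9 were LAMA4, AGRN, LAMB2, SPOCK2, COL25A1, SPOCK1, COL1A1, COL7A1 and THBS4. COL4A1, COL4A2, COL6A1 and VCAN were in both lists. Extracellular proteases and their inhibitors were control-only in 16 of 40 (40%, interval 24.9 to 56.7%), with SERPINH1, ADAMTS14, ADAMTSL2, MMP25, CTSH, SERPINB9, ADAMTS15 and ADAMTSL5 earliest in the table. ADAMTS and ADAMTS-like genes, which encode matrix proteases and relatives, contributed 7 of their 13. The integrins ITGA2, ITGA11 and ITGA8 were 3 of 9.

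Ion channels and neurotransmitter receptors were control-only about as often. Voltage-gated and related channels had 19 of 48 (39.6%, interval 25.8 to 54.7%). Potassium channels had 16 of 32, calcium channel subunits 3 of 11 and sodium and HCN channels 0 of 5. The 3 calcium channel genes, CACNA1G, CACNA1B and CACNA1A, encode pore-forming subunits, as does CACNA1C, which was in both lists. Earliest in the table among the 19 were KCNJ2, KCNF1, CACNA1G, KCNA3, CACNA1B, KCNK9 and KCNH1. Sodium channel genes SCN8A, SCN9A and SCN3B were in both lists.

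Neurotransmitter receptors had 17 of 40 (42.5%, interval 27.0 to 59.1%), and 52 of the 93 in the table were in neither list. The inhibitory GABA and glycine receptors had 8 of 11, among them GABRG3, GLRB, GABRQ, GABRB2, GLRA3, GABBR2 and GABRA2. Glutamate receptors had 2 of 7, among them GRIN3B. Of the acetylcholine receptors the muscarinic CHRM1 and CHRM2 were control-only, whereas the nicotinic CHRNA3, CHRNB4 and CHRNA5, which lie side by side in the genome, were in both lists. Monoamine receptors had 4 of 13, ADRB1, HTR1B, DRD4 and HTR1A. These subdivisions hold few promoters, and their intervals overlap widely.

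Synaptic vesicle and adhesion genes were near the background at 9 of 41 (22.0%, interval 10.6 to 37.6%). They were DLG2, CNTNAP2, SYT10, DLG3, CHL1, SYT6, NLGN3, CNTN2 and NLGN1, most of which encode synaptic adhesion or scaffold proteins. Genes of G protein-coupled receptor signalling had 5 of 34, among them GNG8, GPR6 and GPR101. Neuronal cytoskeleton genes had 0 of 8. Solute carriers had 17 of 72 (23.6%, interval 14.4 to 35.1%), with SLC35B3, SLC16A14, the iron exporter SLC40A1, SLC2A12, SLC37A2, SLC30A10, SLC4A11 and SLC26A4 earliest in the table. Genes with open reading frame, KIAA, FAM, TMEM or CCDC names were near the background, with 33 of 172 (19.2%), among them TMEM132E, TMEM143, C2orf70, TMEM67, CCDC22, KIAA1804, TMEM178A and C1orf112.

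Immune and metabolic lists held smaller numbers. Interferon and innate sensing genes had 6 of 19 control-only (31.6%, interval 12.6 to 56.6%), IRF5, IRF7, PSMB8, TLR5, ISG15 and IFIH1. IRF5 and IRF7 are transcription factors of the interferon response, TLR5 and IFIH1 sense bacterial flagellin and viral RNA, and ISG15 is a ubiquitin-like modifier. Cytokine and receptor genes also had 6 of 19, IL20RA, IL6R, CXCR4, CXCL2, IL17RB and OSMR. Their interval was the same as that of the interferon list, and it included the 17.9% of the table. Xenobiotic metabolism and ABC transporter genes had 9 of 23 (39.1%, interval 19.7 to 61.5%), EPHX2, CYP27A1, ABCC8, ABCA7, ABCC3, ALDH1L1, CYP1B1, ALDH3B1 and CYP2S1. Of the BCL2 and caspase list, CASP6 and the pro-apoptotic BIK were 2 of 5.

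Genes of cell maintenance were seldom control-only. No promoter was control-only among 30 of ribosome and translation genes (interval 0 to 11.6%) or 18 of mitochondrial respiration genes (0 to 18.5%). Membrane trafficking names had 2 of 78 (2.56%, interval 0.312 to 8.96%), RAB38, which acts in the traffic of melanosome proteins, and SNX10. Zinc finger names had 3 of 70 (4.29%, interval 0.893 to 12.02%), ZNF454, ZNF334 and ZNF560. The ubiquitin system had 5 of 68 (7.35%, interval 2.43 to 16.3%), TRIM45, USP2, TRIM58, RNF135 and RNF182. The kinesin and tubulin list had KIF4A, DYNLRB2 and TUBA8 among 27, chaperones had DNAJA4 among 12, and replication and mitosis genes had GINS4 among 9. KRT18 was the sole member from 13 blood, epithelial, liver and muscle markers in the table, and the other 12 were in neither list.

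Row position and function overlapped, so shares were also taken within rows 2501 to 3500, where control-only and both-list promoters were nearly balanced at 461 and 510. There the background share was 47.5%, an average of 29.6% in rows 2501 to 3000 and 66.1% in rows 3001 to 3500. The narrower range thus did not hold row position fixed. Lists were pooled by role after the calls had been seen. Transcriptional regulators were control-only in 26 of 42 promoters in these rows (61.9%, interval 45.6 to 76.4%). Signals, receptors and matrix genes had 56 of 101 (55.4%, interval 45.2 to 65.3%), and channels, neurotransmission and transport genes had 52 of 93 (55.9%, interval 45.2 to 66.2%). These intervals include 47.5%. Cell maintenance genes had 9 of 49 (18.4%, interval 8.76 to 32.0%), below it. Among the single lists, only extracellular proteases and inhibitors lay wholly above it, with 12 of 13 in these rows (92.3%, interval 64.0 to 99.8%). Membrane trafficking names, with 1 of 10 (interval 0.253 to 44.5%), and ribosome and translation genes, with 0 of 6 (0 to 45.9%), lay wholly below 47.5%. Most of these trafficking and ribosome promoters lay in rows 2501 to 3000, and most of the 13 protease promoters in rows 3001 to 3500. The distance of these lists from 47.5% therefore cannot be told apart from row position. Over all rows the pools of transcriptional regulators, signals with matrix, channels with transport, and cell maintenance had 38.0%, 30.8%, 29.8% and 4.98%.

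Most cell maintenance promoters with a control peak, 188 of 241 (78.0%), lay in rows 1 to 2500, where control-only promoters were rare. The corresponding share was 45.0% of transcriptional regulators, 49.6% of signals, receptors and matrix genes and 53.5% of channels, neurotransmission and transport genes. Shares of transcriptional regulators, signals with matrix genes, and channels with transport genes were above the background over the whole table. They were also above it within rows 2501 to 3500, where their intervals included it. Cell maintenance genes lay below the background in both settings. It was 17.9% over the table and 47.5% in rows 2501 to 3500, so distances in percentage points cannot be compared. Zinc finger names had 3 of 9 in these rows, with an interval of 7.49 to 70.1%.

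**Figure D3:**
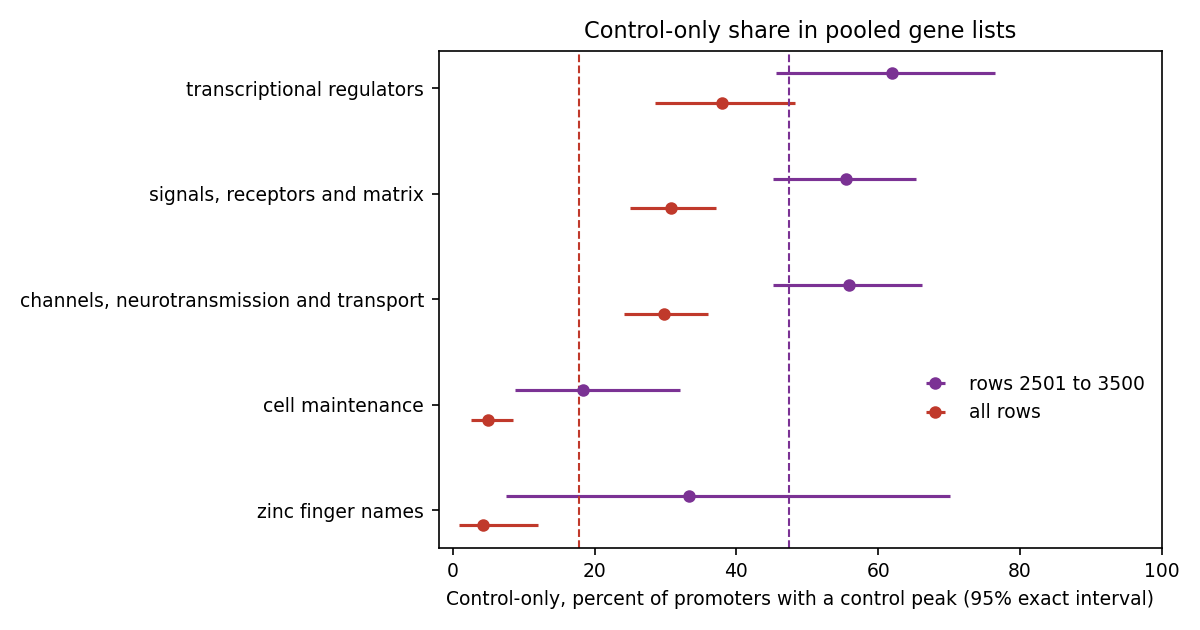
Control-only share of promoters with a control peak in 5 pools of gene lists, in rows 2501 to 3500 (purple, upper) and over all rows (red, lower), with exact 95% intervals over promoters. Dashed lines are the shares of all non-binding promoters with a control peak, 47.5% in those rows and 17.9% over the table; cell maintenance lies below both.

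Promoter sequences were compared by base composition, which the membership rule did not use. RefSeq held a promoter for 487 of the 656 members (74.2%), too few for a comparison over all of them, so it was restricted to 15 chromosomes where at least 80% of the table's promoters had one. There 408 of 465 control-only promoters (87.7%) and 1919 of 2176 in both lists (88.2%) had a sequence, averaged over entries where a gene had several. The RefSeq start site can differ from the deposited one.

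Control-only promoters were somewhat poorer in CpG than promoters in both lists and far richer than those in neither list. The median CpG observed over expected was 0.740 (quartiles 0.572 and 0.854) in control-only promoters, 0.811 (0.674 and 0.922) in both lists and 0.310 (0.179 and 0.559) in neither list. Median GC content was 63.8% in control-only promoters and 65.7% in both lists. Counting as CpG-rich those with a ratio of at least 0.6 and GC of at least 50%, 283 of 408 control-only promoters were (69.4%, interval 64.6 to 73.8%), against 1570 of 1919 in both lists (81.8%, interval 80.01 to 83.5%). In neither list 20.6% were. Within rows 2501 to 3500 the shares were 71.2% (interval 65.6 to 76.3%) for control-only promoters and 76.2% (interval 71.3 to 80.6%) for those in both lists, and these intervals overlapped.

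**Figure D4:**
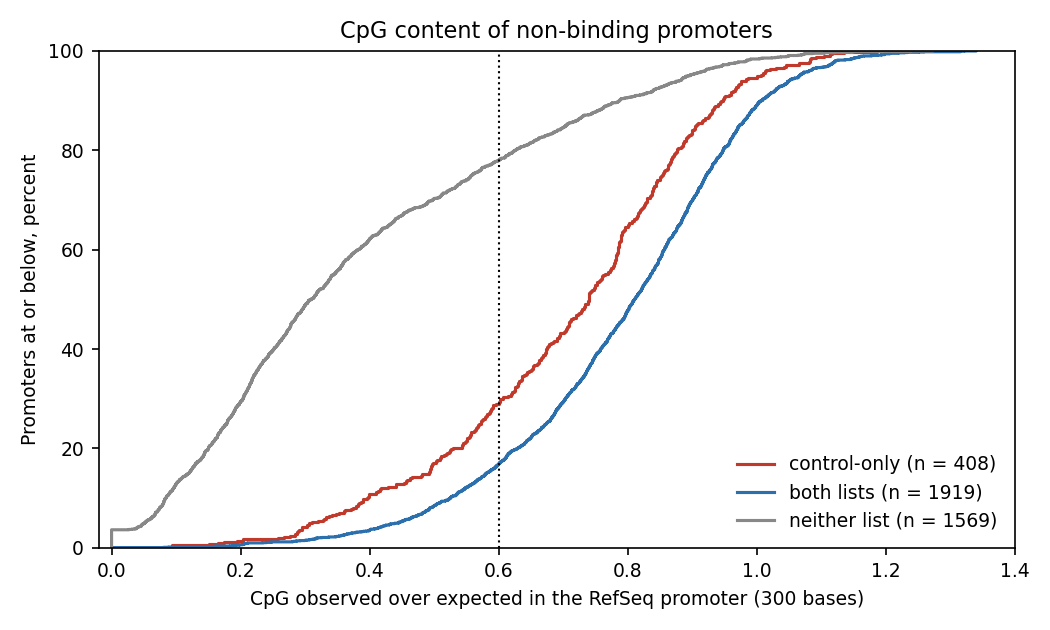
Cumulative share of non-binding promoters (vertical axis, percent) at or below each CpG observed over expected ratio (horizontal axis), for 408 control-only promoters, 1919 in both lists and 1569 in neither list. The control-only curve lies a little left of the curve for both lists (medians 0.740 and 0.811) and far right of that for neither list (0.310); the dotted line marks the 0.6 used to call a promoter CpG-rich.

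Read the other way, CpG-poor promoters with a control peak were control-only more often. Of promoters that were not CpG-rich, 125 of 474 were control-only (26.4%, interval 22.5 to 30.6%), against 283 of 1853 CpG-rich ones (15.3%, interval 13.7 to 17.0%). Within rows 2501 to 3500 the shares were 50.3% of those not CpG-rich and 43.9% of CpG-rich ones, with overlapping intervals. The most CpG-rich members with a single entry were SP8, COLEC12, WNT2, EN2 and COL25A1, with ratios of 1.10 to 1.19. The poorest were FFAR2, VAV3, which encodes a guanine nucleotide exchange factor, the platelet glycoprotein gene GP5, EPHB6 and the NAD-consuming enzyme gene CD38, with ratios of 0.0863 to 0.195.

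Short motifs were searched on both strands in genes with a single RefSeq entry, 278 control-only and 1300 in both lists. The TATA box letters TATAAA were in 8.63% of control-only promoters (interval 5.61 to 12.6%) and 3.69% of those in both lists (2.73 to 4.87%), beside 11.7% of all RefSeq promoter entries on these chromosomes. GCCATNTTG, the letters bound by YY1, were in 0.719% of control-only promoters (0.0872 to 2.57%), 4.77% of those in both lists (3.68 to 6.07%) and 2.68% of all entries. GGGCGG, bound by SP1, was in 68.7% of control-only promoters (62.9 to 74.1%), 77.2% of those in both lists (74.9 to 79.5%) and 44.4% of all entries. Within rows 2501 to 3500 the intervals of these motifs overlapped, with TATAAA in 8.5% of 200 control-only promoters and 6.90% of 232 in both lists, GCCATNTTG in 1.0% and 5.17%, and GGGCGG in 69.0% and 74.1%.

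The E-box CACGTG, which MYC proteins bind, was in 6.12% of control-only promoters (interval 3.60 to 9.61%), 7.23% of those in both lists (5.88 to 8.78%) and 6.99% of all entries. CCAAT was in 32.7% of control-only promoters, 38.5% of those in both lists and 34.6% of all entries. The AP-1 letters TGACTCA were in 4.32%, 2.00% and 4.87% of the same sets, the cyclic AMP element TGACGTCA in 3.60%, 3.31% and 1.80%, and the NRF1 motif, a 10-base palindrome, in 1.08%, 2.77% and 1.19%. A match of letters is a description and not a bound site, and a promoter was counted once per motif.

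Members were spread over the genome. Among 23 chromosomes with at least 10 non-binding promoters carrying a control peak, the control-only share ran from 13.3% on chromosomes 15 and 21 to 24.3% on chromosome 17 (37 of 152, interval 17.8 to 32.0%). The interval of each of the 23 included the share of the whole table. On chromosome X 36 of 218 were control-only (16.5%).

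Control-only promoters seldom had a close partner in the tables. Another listed start site lay within 1000 bp of 10 of 656 control-only promoters (1.52%, interval 0.733 to 2.79%) and of 157 of 3019 in both lists (5.20%, interval 4.44 to 6.05%). Within rows 2501 to 3500 the shares were 1.74% of control-only promoters (interval 0.752 to 3.39%) and 2.75% of those in both lists (1.51 to 4.56%), with overlapping intervals. The 10 formed 5 pairs in which both partners were control-only, KIF4A with PDZD11, LRRC36 with KCTD19, CHDH with IL17RB, PYY with NAGS, and TRPC5 with ZCCHC16, with 81 bp between the start sites of KIF4A and PDZD11 and 195 bp between those of PYY and NAGS. Of the 157 promoters in both lists, 0 had a control-only nearest neighbour. Start sites this close can be assigned the same peak, so their calls are not independent. Partners also held nearby rows, such as 2641 for KIF4A and 2644 for PDZD11.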

How the data were processed

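H3K4me3 ChIP-seq of BE(2)-C cells gave 1 library per siRNA, assigned to its siRNA by its title. Reads were handled with BWA 0.7.12 and bedtools on hg19, as listed in the submitters' processing notes. Peak caller, calling threshold and the criterion for N-Myc binding are not stated there. The authors deposited gene names with a peak within 1 kb of the start site, and promoter tables with a start site and a gene name, without measured values. Each start site spans a 1-base interval, whose end gives the 1-based position.

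Promoters were joined to the lists by exact gene name, so a peak at another start site of a gene can count for its promoter. Of 9585 names, 9562 matched a RefSeq symbol or unambiguous synonym (GRCh38.p14), used for names, gene types and promoter sequences. With 1 library per siRNA no test was made, and counts, medians and exact 95% intervals are given.

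The members and the 47 gene lists were chosen with earlier results of these data known. All control-only promoters of a list are named where it has up to 12, otherwise the 8 earliest in the table. The 10 earliest and 5 latest members, the 5 highest and 5 lowest in CpG, and runs of at least 3 neighbours are also named. Some genes that this rule names are not reported here. The row ranges, the pools, the subdivisions, the 15 chromosomes and the examples in both lists were chosen after the calls were seen. LINC, antisense, microRNA host and accession-style names had no promoter in the non-binding table. LOC names, histone genes and Schwann cell markers had 0 of 1, 0 of 4 and 0 of 2 control-only. Sequences of TH, COL1A1 and SOX11 are not shown. The code was tested on simulated lists. Software versions were Python 3.11.15, pandas 2.3.3, numpy 2.4.6, matplotlib 3.10.9 and scipy 1.17.1.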

Additional observations from a re-analysis of the deposited data

How the results depend on the processing

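Of 28 alternative values for 7 results, 23 stayed within 1.5 times (counts) or within the interval over promoters (shares). Taken over all promoters of the table, the control-only share was 10.4%. With neighbours counted within 50000 bp, 32.0% of control-only promoters had one, against 6.25% within 10000 bp. With a CpG observed over expected of at least 0.75, 46.1% of control-only promoters were CpG-rich, and with single-entry genes only, a setting added after the data were seen, 78.4% were. The difference in CpG-rich share, control-only minus both lists, was -12.5 percentage points over all rows and -4.98 within rows 2501 to 3500, also added later. Joining by synonyms gave 657 members. No paired analysis was possible because each siRNA has 1 H3K4me3 library. Read depth is not known, and a promoter without a call may still carry H3K4me3.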

Other observations

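Some members were consecutive in the genome among the promoters with a control peak. Taking the promoters of both tables with a control peak in genome order, 17 runs of at least 3 consecutive control-only promoters were found, 4 of them with 4 promoters. Of the promoters with a control peak, 17.9% of the non-binding and 4.18% of the N-Myc-binding ones were control-only. How many runs these shares alone would give was not determined, so the runs are only listed. The tightest run of 4 spanned 163 kb of chromosome 17 (hg19, positions 41985113 to 42148098) and held MPP2, PYY, NAGS and G6PC3. PYY encodes a gut peptide hormone, NAGS a urea cycle enzyme and G6PC3 a glucose-6-phosphatase, and G6PC3 is an N-Myc-binding promoter. On chromosome X a run of 4 held PDZD11, KIF4A, DLG3 and SLC7A3 within 641 kb. On chromosome 2 TBR1, IFIH1, GCA and KCNH7 formed a run that spanned 1423 kb. The run on chromosome 8 spanned 3192 kb and held OTUD6B, an N-Myc-binding promoter, then RUNX1T1, TMEM67 and GEM.

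Of the runs of 3, the tightest held GRIN3B, CNN2 and ABCA7 within 39.7 kb of chromosome 19. MCOLN2 and MCOLN3, which encode related lysosomal cation channels, stood beside WDR63 within 65.2 kb of chromosome 1. SPATA20, CACNA1G and ABCC3 lay within 87.8 kb of chromosome 17, and HOXB9, HOXB13 and TTLL6 within 191 kb of the same chromosome. DBH lay between ADAMTSL2 and SARDH within 204 kb of chromosome 9. C1QTNF6, RAC2 and MFNG, ACY3, UNC93B1 and ALDH3B1, SLC37A2, PKNOX2 and FEZ1, and SFRP5, CRTAC1 and LOXL4 each spanned under 500 kb. The remaining runs, CHRDL1 with TRPC5 and ZCCHC16, HPGD with GLRA3 and GPM6A, MDFIC with CAV1 and MET, and GMPPA with EPHA4 and PAX3, spanned more than 1 Mb. In all runs, genes in neither table and listed promoters without a control peak were passed over, so members of a run need not be adjacent genes.

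The nearest neighbour within 10000 bp, where it had a control peak, was itself control-only for 16 of 34 control-only promoters (47.1%, interval 29.8 to 64.9%) and for 19 of 260 promoters in both lists (7.31%, interval 4.46 to 11.2%). These counts include neighbours within 1000 bp, which can share a peak, for 10 control-only promoters and 157 in both lists. With neighbours more than 1000 bp away only, a setting added after the data were seen, the neighbour was control-only for 6 of 24 control-only promoters (25%, interval 9.77 to 46.7%) and 19 of 103 in both lists (18.4%, interval 11.5 to 27.3%), and these intervals overlapped.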
